A study of Gallus gallus with 5 samples.

Results

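The genes described here are the cytosolic ribosomal protein genes of the chicken gastrula, chosen by symbol: every listed gene whose symbol begins with RPL or RPS and a digit, together with RPLP0 and RPLP1, without the 3 kinase genes of the RPS6K family. Of the 6940 genes listed, 56 met this rule, 37 with symbols of the large ribosomal subunit (RPL, RPLP) and 19 with symbols of the small subunit (RPS). RPSA and RPLP2 were not analysed here. All 56 had at least 1 UMI (unique molecular identifier, 1 counted RNA molecule) in each of the 4 libraries, and 55 were abundant enough to compare in every contrast. The exception was RPL3L, a paralogue of RPL3 known from muscle, which lay between 0.9 and 2.4 UMIs per 1000000 (CPM) in all groups of cells.

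Ribosomal proteins assemble with ribosomal RNA into the subunits that translate messenger RNA, and each subunit needs its proteins in fixed proportions. Their messenger RNAs are among the most abundant in growing cells and carry a short pyrimidine-rich start that couples their translation to nutrient and growth signals. Some also have functions beyond the ribosome, such as RPL5 and RPL11, which bind the p53 regulator MDM2, and RPS6, the subunit protein phosphorylated downstream of growth factor signalling.

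The samples were grafts of medial somite progenitors from the anterior primitive streak, placed from donor embryos expressing eGFP into wild-type hosts at Hamburger-Hamilton stage HH4, before the node regresses. Heterochronic grafts (HH8-HH4) used HH8 donors and homochronic grafts (HH4-HH4) used HH4 donors, and each was collected as 1 pool of embryos at 0 h and 1 at 3 h. The dissected tissue held both donor and host cells, which were read by 10x Genomics 3′ single-cell RNA-sequencing. Here graft cells carried at least 3 eGFP UMIs, host cells carried 0, and both had at least 2000 UMIs in all.

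The libraries differed in size and depth, with 301 to 4038 barcodes and medians of 981 to 38081 UMIs per barcode. HH8-HH4 3 h stood apart in that 56.6% of its barcodes had fewer than 2000 UMIs, against 1.81% to 9.30% in the others. HH4-HH4 3 h was the smallest library and the deepest, and HOXB8 and CDX4, posterior genes of the HH8 progenitor region, were read in its host cells at 92.3 and 525 CPM, against 0.263 and 48.6 CPM in HH4-HH4 0 h host cells. The donor labels were borne out in the HH8-HH4 libraries, where HOXB8 was at 1163 CPM in graft cells and 14.8 CPM in host cells at 0 h, and at 999.5 CPM in graft cells and 7.33 CPM in host cells at 3 h. The 2 deposited replicates of HH4-HH4 0 h shared 2755 barcodes and were counted as 1 library. Between different libraries, each shared 1 to 4 barcodes with the others. Every condition therefore has 1 library, differences carry no replicate check, and time, library and depth cannot be told apart in comparisons across libraries. Intervals given below are 95% intervals that cover counting error only.

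Ribosomal protein genes took up 24.0% to 28.5% of all UMIs of the listed genes, and HH8 graft cells gave them a larger share than the HH4 host cells around them. In HH8-HH4 0 h the share was 27.0% in 2029 graft cells (27.00 to 27.04) and 24.0% in 1726 host cells (24.02 to 24.06), a difference of 2.98 percentage points. In HH8-HH4 3 h it was 28.3% in 116 graft cells and 25.5% in 232 host cells, a difference of 2.79 points (2.72 to 2.86), which was 1.73 points when graft cells were taken from 1 eGFP UMI upward. Graft cells lay mostly above the middle of the hosts, with 92.9% of HH8 graft cells over the host median at 0 h and 81.0% at 3 h. The middle 50% of single cells ran from 25.6% to 28.3% in graft cells and from 22.8% to 25.2% in host cells at 0 h, 2 ranges that did not overlap, although the 5th percentile of graft cells (23.6%) was below the 95th of host cells (27.1%). At 3 h the middle 50% ran from 26.0% to 30.3% in graft cells and from 22.7% to 27.0% in host cells, and these ranges overlapped.

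**Figure D1:**
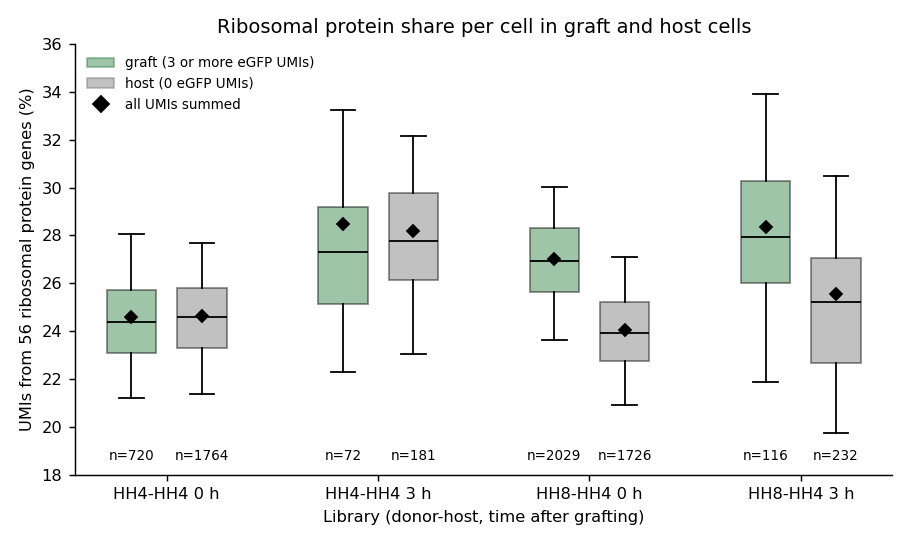
Percentage of UMIs from the 56 ribosomal protein genes in each library (x axis), for graft cells (green) and host cells (grey). Boxes span the quartiles of single cells with the median as a line, whiskers the 5th to 95th percentiles, and diamonds the share of all UMIs summed. In HH8-HH4 0 h the box of graft cells sits wholly above that of host cells, in HH8-HH4 3 h it is higher but overlaps, and the HH4-HH4 boxes lie level.

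In homochronic grafts no such gap was seen. The share was 24.6% in 720 graft cells and 24.6% in 1764 host cells of HH4-HH4 0 h, a difference of -0.05 points (-0.08 to -0.02). In HH4-HH4 3 h it was 28.5% in 72 graft cells and 28.2% in 181 host cells, a difference of 0.33 points, while the single-cell medians had the other order, 27.3% in graft cells and 27.8% in host cells. With 46.4% of graft cells above the host median at 0 h and 45.8% at 3 h, HH4 graft cells were spread around the host median.

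Both subunits took part in the HH8 difference. Large-subunit genes made up 17.1% of UMIs in HH8 graft cells and 15.1% in host cells at 0 h, and 18.2% in graft cells and 16.3% in host cells at 3 h. Small-subunit genes made up 9.90% in graft cells and 8.95% in host cells at 0 h, and 10.2% in graft cells and 9.22% in host cells at 3 h. The ratio of small- to large-subunit UMIs was 0.578 in graft cells and 0.593 in host cells at 0 h, and 0.561 in graft cells and 0.565 in host cells at 3 h.

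The difference was also seen between graft and host cells that shared a marker gene with at least 2 UMIs. Among cells with MSGN1, a transcription factor gene of ingressed paraxial mesoderm, the share was 27.1% in 766 graft cells and 24.1% in 772 host cells of HH8-HH4 0 h, and 28.3% in 20 graft cells and 25.0% in 121 host cells at 3 h. Among cells with SOX3, an epiblast and neural transcription factor gene, it was 27.0% in graft cells and 24.2% in host cells at 0 h, and 28.7% in graft cells and 26.4% in host cells at 3 h. With CHRD, the BMP antagonist gene of the node, it was 27.2% in graft cells and 24.0% in host cells at 0 h, and 28.0% in graft cells and 25.6% in host cells at 3 h. The SOX3 gate held 285 graft and 494 host cells at 0 h, and 24 and 69 at 3 h. The CHRD gate held 44 of 2029 graft and 675 of 1726 host cells at 0 h, and 48 of 116 and 208 of 232 at 3 h. A shared marker gene does not show that the cell types were alike. In each of these gates the graft value was the higher. Within HH8-HH4 0 h the graft gates ran from 26.6% (TBX6, a mesoderm transcription factor gene) to 28.0% (TFAP2A, a neural plate border gene). The host gates ran from 23.2% (APOA1, a yolk-associated apolipoprotein gene) to 25.7% (HOXB8), the last resting on 20 cells without eGFP that carried the HH8 gene. Cells can fall in several gates, as 537 of the 1591 host cells in any of 4 main gates of that library did. The blood genes HBBA and HBZ and the yolk gene TTR were at most 2.16 CPM in any group. APOA1 was present, at 16.5 CPM in graft cells and 135 CPM in host cells of HH8-HH4 0 h, at 124 CPM in graft cells and 92.6 CPM in host cells of HH8-HH4 3 h, and at 56.4 to 147 CPM in the HH4-HH4 groups, and its part in the share was not tested.

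The HH8 difference had the same direction at matched depth. In HH8-HH4 0 h cells with 10000 to 20000 UMIs the share was 27.2% in graft cells and 24.1% in host cells, and in HH8-HH4 3 h cells of that depth it was 28.5% in 45 graft cells and 25.6% in 33 host cells. At 5000 to 10000 UMIs in HH8-HH4 3 h the gap was narrower, at 24.3% in 13 graft cells and 22.4% in 30 host cells. The lowest barcodes, under 2000 UMIs and outside all comparisons, had shares of 17.7% to 27.1% across the libraries.

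Gene by gene, the HH8 difference was small and spread over nearly the whole group. Of 55 members, 54 had a graft over host log2 ratio above 0 in HH8-HH4 0 h, where 38.8% of the 4388 genes compared did, and 53 of 55 in HH8-HH4 3 h, where 43.4% of 3543 did. In both libraries 53 members were above 0, as were 29% of all genes. The median log2 ratio of the members was 0.14 at 0 h and 0.15 at 3 h, beside medians over all genes of -0.08 and -0.05. None was past 1.5-fold in either direction in these libraries, a size that 4.95% of all genes exceeded upward and 9.39% downward at 0 h, and 5.64% upward and 7.37% downward at 3 h. Among the 46 autosomal genes for ribosome subunits all were above 0 in both libraries, with ratios from 0.03 to 0.39 at 0 h and from 0.03 to 0.34 at 3 h. Subunit genes here and below leave out RPS19BP1, RPL3L, RPL7L1, RPL22L1, RPL26L1, RPL39L and RPS27L. RefSeq gives RPL26 and RPL39 as synonyms of RPL26L1 and RPL39L. Across the 55 members the ratios at 0 h and 3 h had a Pearson correlation of 0.68 (Spearman 0.57), beside 0.81 over all 3543 genes, where the points share the donor stage and the eGFP rule.

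In the homochronic grafts the members were divided, though more of them lay above 0 than among all genes. At 0 h 33 of 55 lay above 0 (46.1% of all genes) with a median of 0.01, and at 3 h 31 of 55 (41% of all genes) with a median of 0.02. With the median of all genes set to 0 instead, 43 lay above 0 at each time, where by construction as many of all genes lie above 0 as below. No member was past 1.5-fold, beside 0.747% of all genes upward and 0.294% downward at 0 h, and 1.87% upward and 1.95% downward at 3 h. RPL11 and RPL6 were the highest at 3 h, at 6744 and 5607 CPM in graft cells and 5779 and 4861 CPM in host cells, with log2 ratios of 0.22 and 0.21. RPS29 and RPL34 were the highest at 0 h, with ratios of 0.12 and 0.09.

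**Figure D2:**
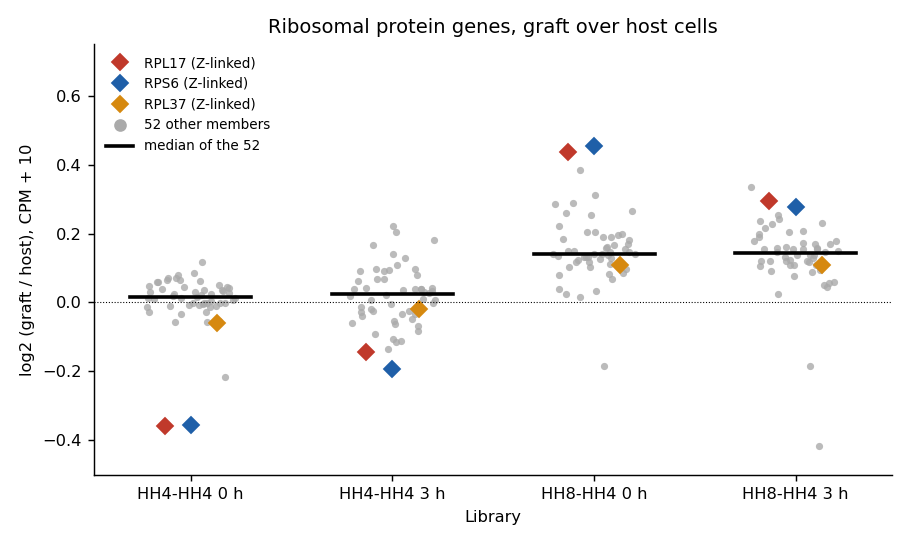
Log2 ratio of graft over host CPM (10 CPM added to both) for 55 ribosomal protein genes in the 4 libraries. Grey points are 52 members on other chromosomes with their median as a line, and coloured diamonds are the Z-linked RPL17, RPS6 and RPL37. The grey points lie around 0 in HH4-HH4 and mostly above it in HH8-HH4, while RPL17 and RPS6 are below 0 in HH4-HH4 and near the top in HH8-HH4.

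RPS6 and RPL17 had the highest graft over host ratios in HH8-HH4 0 h, and RPL36 had the highest at 3 h, followed by RPL17 and RPS6. RPS6 was at 6324 CPM in graft cells and 4617 CPM in host cells of HH8-HH4 0 h (log2 ratio 0.45), and at 5609 and 4630 CPM in graft and host cells at 3 h (0.28). RPL17, a protein beside the exit tunnel of the large subunit, was at 10343 CPM in graft cells and 7644 CPM in host cells at 0 h (0.44), and at 9413 and 7681 CPM in graft and host cells at 3 h (0.29). Both genes lie on the Z chromosome, and both showed the reverse order in homochronic grafts. RPS6 was at 3986 CPM in graft cells and 5100 CPM in host cells of HH4-HH4 0 h (-0.35), and at 3303 and 3777 CPM in graft and host cells at 3 h (-0.19). RPL17 was at 6784 CPM in graft cells and 8700 CPM in host cells at 0 h (-0.36), and at 6761 and 7465 CPM in graft and host cells at 3 h (-0.14).

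Autosomal genes made up the rest of the highest members. RPL36 was at 1884 CPM in graft cells and 1440 CPM in host cells of HH8-HH4 0 h (0.39), and at 2758 and 2182 CPM in graft and host cells at 3 h (0.34). RPS12 was at 3213 CPM in graft cells and 2588 CPM in host cells at 0 h (0.31), and at 4582 and 3837 CPM in graft and host cells at 3 h (0.26). RPL11, of the MDM2-binding pair, was at 5720 CPM in graft cells and 4683 CPM in host cells at 0 h (0.29), and RPL23 had the same ratio there. RPL39L, for which RefSeq gives RPL39 as a synonym, was also among the highest at 3 h (0.24). In homochronic grafts RPL36 and RPS12 had ratios of 0.05 and -0.01 at 0 h and of 0.04 and -0.06 at 3 h.

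The lowest member was RPS19BP1 at 0 h and RPS27L at 3 h, neither of them counted here as a subunit gene. RPS19BP1, which encodes a protein that binds RPS19 and is no ribosomal protein, was at 97.1 CPM in graft cells and 112 CPM in host cells of HH8-HH4 0 h, with a ratio of -0.18 both at 0 h and at 3 h. RPS27L, a p53-responsive paralogue of RPS27, had a ratio of 0.02 at 0 h, and at 3 h it was at 77.4 CPM in graft cells and 107 CPM in host cells (-0.42). RPL22L1, the paralogue of RPL22, was at 1805 CPM in graft cells and 1775 CPM in host cells at 0 h (0.02), where RPL22 itself had a ratio of 0.17. Among subunit genes the lowest were RPS28 and RPS3 at 0 h (0.03 and 0.04) and RPL38, RPS24 and RPS3 at 3 h (0.03, 0.05 and 0.05). RPL7L1, a paralogue of RPL7 linked to ribosome assembly, had ratios of 0.22 at 0 h and 0.14 at 3 h, and RPL26L1, a synonym of RPL26 in RefSeq, had 0.14 and 0.12.

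Levels differed far more between members than between groups for any 1 member. By mean CPM over the 8 groups, high levels were found for RPLP1, an acidic protein of the ribosomal stalk, at 11100, RPS27A, which is made as a fusion with ubiquitin, at 8339, RPS2 at 8336 and RPL17 at 8099. These are counts of 3′ ends, 1 per molecule. Of the 56 members 52 averaged at least 1000 CPM and 54 at least 100 CPM. Group to group, RPS10 and RPS3 were the steadiest, with highest over lowest levels of 1.12 and 1.13, and, leaving out the barely detected RPL3L, RPL37A, RPL29 and RPL36 were the most variable, at 2.11, 2.05 and 1.99.

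The Z-linked members were then set beside HINTW, a gene on the female-specific W chromosome. In birds females carry 1 Z and males 2, and dosage compensation of Z genes is incomplete. HINTW divided the cells of each library, with 66.3% of graft cells and 19.0% of host cells above 500 CPM in HH4-HH4 0 h, and 64.3% of graft cells and 48.0% of host cells in HH4-HH4 3 h. In HH8-HH4 0 h 2.22% of graft cells and 44.8% of host cells were above it, and in HH8-HH4 3 h 2.73% of graft cells and 24.7% of host cells. HH8 graft pools were thus nearly all low in HINTW, whereas HH4 graft pools were mostly high. These shares refer to cells with at least 5000 UMIs, and HINTW-low means under 200 CPM.

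RPL17 and RPS6 were lower in HINTW-high than in HINTW-low host cells of all 4 libraries. RPL17 was at 5262 CPM in HINTW-high and 9567 CPM in HINTW-low host cells of HH4-HH4 0 h, and its log2 ratios in HH4-HH4 0 h, HH4-HH4 3 h, HH8-HH4 0 h and HH8-HH4 3 h were -0.86, -0.82, -0.88 and -0.73. RPS6 was at 3081 CPM in HINTW-high and 5563 CPM in HINTW-low host cells of HH4-HH4 0 h, with ratios of -0.85, -0.94, -0.83 and -0.79 in that order of libraries. RPL37, the other Z-linked member, differed less, at 3390 CPM in HINTW-high and 4523 CPM in HINTW-low host cells of HH4-HH4 0 h and with ratios of -0.41, -0.45, -0.40 and -0.41. So both RPL17 and RPS6 passed 1.5-fold in each library and RPL37 in none, while 3.07%, 3.48%, 4.9% and 4.24% of all genes were lower by that much in the 4 libraries. Other Z-linked genes had medians of -0.49, -0.61, -0.50 and -0.57, and 162 of 168, 132 of 135, 155 of 157 and 120 of 124 of them were below 0.

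**Figure D3:**
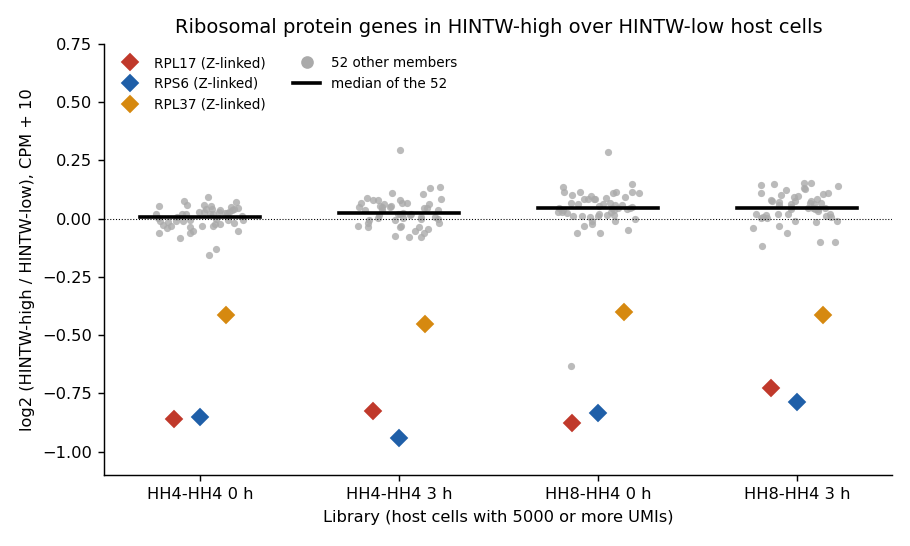
Log2 ratio of CPM in HINTW-high over HINTW-low host cells (10 CPM added to both) for 55 ribosomal protein genes in the 4 libraries. Diamonds are the Z-linked RPL17, RPS6 and RPL37, grey points the 52 other members and lines their median. The diamonds lie between -0.94 and -0.40, and the medians of the other members between 0.01 and 0.05.

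The 52 members on other chromosomes had medians of 0.01, 0.02, 0.05 and 0.05. RPL22L1 departed from the others in part of the groups. RPL22L1, on chromosome 9 of the GRCg7b assembly, was at 1355 CPM in HINTW-high and 2104 CPM in HINTW-low host cells of HH8-HH4 0 h (-0.63), and had ratios of -0.16, -0.04 and -0.01 in host cells of HH4-HH4 0 h, HH4-HH4 3 h and HH8-HH4 3 h. It was the 1 member off the Z that was below 0 in host cells of 4 of 4 libraries. In graft cells of HH4-HH4 3 h it was at 1980 CPM in 45 HINTW-high and 2783 CPM in 25 HINTW-low cells (-0.49). Other members off the Z spread widely in these few cells too, with RPL11 and RPL6 at 0.41 beside a median of 0.13 over the 52. In graft cells of HH4-HH4 0 h the ratio of RPL22L1 was -0.01.

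Within HINTW-low cells RPS6 and RPL17 lay closer to the other members in graft against host. In HH8-HH4 0 h the graft over host ratio there was 0.15 for RPS6 and 0.12 for RPL17, near the member median of 0.17. In HH8-HH4 3 h it was 0.16 for RPS6 and 0.18 for RPL17, beside a median of 0.16. In HH4-HH4 0 h it was -0.02 for RPS6 and 0.02 for RPL17, and in HH4-HH4 3 h 0.06 and -0.09. RPL37 did not move closer in HH8-HH4, with ratios within HINTW-low cells of -0.05 at 0 h and 0.02 at 3 h, beside 0.11 and 0.11 in all cells. The share of UMIs from all members kept its HH8 difference, at 27.0% in 1827 graft cells and 24.1% in 858 host cells of HH8-HH4 0 h and at 28.5% in 105 graft cells and 25.6% in 136 host cells of HH8-HH4 3 h, each a difference of 2.91 points. In the homochronic libraries the differences within HINTW-low cells were -0.43 points at 0 h and -1.21 points at 3 h, the last on 25 graft and 89 host cells. Within HINTW-high cells they were 0.69 points at 0 h and 0.96 points at 3 h, so the sign of the small HH4-HH4 differences went with the HINTW class. The same held for RPL11 and RPL6, the highest members in HH4-HH4 3 h. In HINTW-high cells RPL11 was at 7208 CPM in graft and 5944 CPM in host cells, and RPL6 at 5983 and 4859 CPM. In HINTW-low cells RPL11 was at 5415 CPM in graft and 5627 CPM in host cells, and RPL6 at 4498 and 4854 CPM.

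In HH8-HH4 0 h only 43 graft cells were HINTW-high, with a share of 27.3% beside 24.0% in HINTW-high host cells. In these cells RPL17 was at 8635 CPM, against 10400 CPM in HINTW-low graft cells, a log2 ratio of -0.27 where host cells gave -0.88. Other Z-linked genes also differed less in these graft cells, with a median of -0.24 and 125 of 160 below 0. Host cells of that library gave -0.50 and 155 of 157. The cause was not tested. Within HINTW-high cells the graft over host ratio was 0.73 for RPL17, 0.64 for RPS6 and 0.37 for RPL37, beside a member median of 0.18. HH8-HH4 3 h had 3 such graft cells and gave no value.

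The direct comparison of donor stages at 0 h gave the same direction as graft against host. HH8 graft cells had a share of 27.0% and HH4 graft cells 24.6%, a difference of 2.44 points, and 49 of 55 members were above 0 (45.9% of all genes) with a median of 0.10. Past 1.5-fold were RPS6, at 6324 CPM in HH8 graft cells and 3986 CPM in HH4 graft cells (0.66), and RPL17, at 10343 and 6784 CPM in HH8 and HH4 graft cells (0.61), while 6.78% of all genes were higher by that size, and no member was lower by it, beside 9.62% of all genes. Neither passed it when graft cells were taken from 1 eGFP UMI upward. Both are the Z-linked genes above, and the HINTW classes of the graft pools differed with stage. RPL7L1 (0.29), RPL7A (0.24) and RPL6 (0.24) followed, and RPS19BP1 (-0.10), RPL22L1 (-0.08) and RPS27L (-0.06) were the lowest. At 3 h the shares were 28.3% in HH8 graft cells and 28.5% in HH4 graft cells. The single-cell medians had the other order, 28.0% in HH8 and 27.3% in HH4 graft cells. HH4 graft cells at 3 h carried CDX4 at 383 CPM and HOXB8 at 42.8 CPM, against 35.1 and 0 CPM at 0 h. In HH8 graft cells at 3 h CDX4 was at 556 CPM and HOXB8 at 999.5 CPM. Of 55 members 23 were above 0 (53.7% of all genes), with a median of -0.04. RPS6 was again past 1.5-fold, at 5609 CPM in HH8 graft cells and 3303 CPM in HH4 graft cells (0.76), where 8.5% of all genes were, and none was lower by that size (6.18% of all genes). RPL17 (0.48), RPL4 (0.46), RPL5 (0.37) and RPLP0, the scaffold of the ribosomal stalk (0.36), came next, and RPL34 (-0.44), RPL9 (-0.41) and RPS19BP1 (-0.38) were the lowest.

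The host cells had not been given another stage, yet their shares differed between libraries too. At 0 h they were 24.6% in HH4-HH4 and 24.0% in HH8-HH4 host cells, and at 3 h 28.2% in HH4-HH4 and 25.5% in HH8-HH4 host cells. The 2.62 points between hosts at 3 h were close in size to the graft minus host difference within HH8-HH4 3 h, so across libraries at 3 h a difference of donor stage and one of library cannot be told apart. The marker genes of these host cells differed as well, with CDX4 at 525 CPM in HH4-HH4 3 h and 19.9 CPM in HH8-HH4 3 h host cells. CHRD was at 305 CPM in HH4-HH4 and 1647 CPM in HH8-HH4 host cells, the endoderm gene GATA6 at 1.75 CPM in HH4-HH4 and 56.1 CPM in HH8-HH4 host cells, and the node gene ADMP at 0 CPM in HH4-HH4 and 82.5 CPM in HH8-HH4 host cells. The part of these cell types in the share was not tested.

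Over all cells compared, the share was higher at 3 h than at 0 h in all 4 pairs of groups. HH4 graft cells had 28.5% at 3 h and 24.6% at 0 h, and HH4-HH4 host cells 28.2% at 3 h and 24.6% at 0 h. At 20000 to 40000 UMIs HH4 graft cells had 27.6% at 3 h and 25.4% at 0 h, and HH4-HH4 host cells 27.5% and 25.2%. HH8 graft cells had 28.3% at 3 h and 27.0% at 0 h, and HH8-HH4 host cells 25.5% at 3 h and 24.0% at 0 h. In HH8-HH4 the order depended on depth. At 10000 to 20000 UMIs graft cells had 28.5% at 3 h and 27.2% at 0 h, and host cells 25.6% and 24.1%. At 5000 to 10000 UMIs graft cells had 24.3% at 3 h (13 cells) and 26.8% at 0 h, and host cells 22.4% and 23.8%. Host cells were also lower at 3 h at 2000 to 5000 and at 20000 to 40000 UMIs. Unlike the graft over host difference within the HH8-HH4 libraries, the difference between 3 h and 0 h was uneven between members. In HH4 graft cells 40 of 55 were above 0 (39.7% of all genes) and 9 were past 1.5-fold upward (4.37%), and in HH4-HH4 host cells 40 were above 0 (42.4%) and 9 past 1.5-fold (4.83%). In HH8-HH4 host cells 36 were above 0 (44.4%) and 3 past 1.5-fold (1.34%), and in HH8 graft cells 34 were above 0 (51.7%) and none past it (4.12%). No member was lower by 1.5-fold, beside 7.9% of all genes in HH4 graft cells, 5.4% in HH4-HH4 host cells, 3.14% in HH8-HH4 host cells and 3.51% in HH8 graft cells.

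The members highest at 3 h over 0 h were RPL29 in HH4 graft and HH8 graft cells and RPL37A in both groups of host cells. RPL37A was at 5094 CPM at 3 h and 2747 CPM at 0 h in HH4 graft cells (0.89), and at 5185 CPM at 3 h and 2633 CPM at 0 h in HH4-HH4 host cells (0.97). In the heterochronic libraries it was at 4151 CPM at 3 h and 2831 CPM at 0 h in HH8 graft cells (0.55), and at 3739 CPM at 3 h and 2458 CPM at 0 h in HH8-HH4 host cells (0.60). RPL29 had ratios of 0.96 in HH4 graft cells, 0.93 in HH4-HH4 host cells, 0.57 in HH8 graft cells and 0.59 in HH8-HH4 host cells. The 9 past 1.5-fold in HH4 graft cells were RPL29, RPL34 (0.89), RPL37A, RPL39L (0.81), RPL36 (0.78), RPL38 (0.75), RPLP1 (0.73), RPL35A (0.63) and RPS28 (0.62). The 3 in HH8-HH4 host cells were RPL37A, RPL36 (0.60) and RPL29, with RPS12 (0.57) and RPS28 (0.53) next.

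Other members were lower at 3 h. RPLP0 was at 3828 CPM at 3 h and 5028 CPM at 0 h in HH4 graft cells (-0.39), and at 3734 CPM at 3 h and 4821 CPM at 0 h in HH4-HH4 host cells (-0.37). RPL4 (-0.31), RPS4Y1, which RefSeq also lists as RPS4 (-0.36), and RPL8 (-0.25) were low in HH4 graft cells. RPL15 was the lowest in HH8-HH4 host cells (-0.25) and the next to lowest, after RPL7L1 (-0.28), in HH8 graft cells (-0.23), with RPL9 and RPS3A also low in both. RPS6 was at -0.27 in HH4 graft cells and -0.43 in HH4-HH4 host cells, 2 groups whose HINTW-high share was 64.3% and 48.0% at 3 h beside 66.3% and 19.0% at 0 h.

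**Figure D4:**
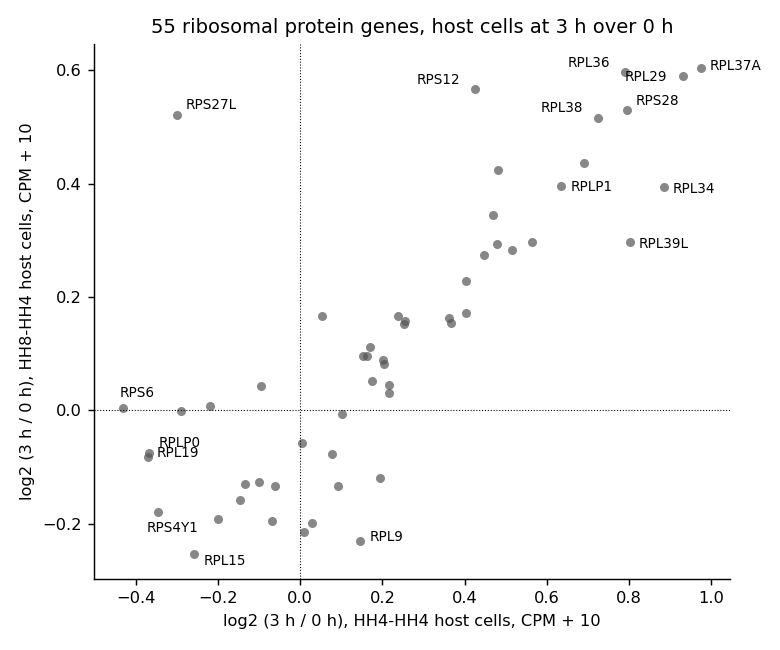
Log2 ratio of 3 h over 0 h CPM (10 CPM added to both) of 55 ribosomal protein genes in host cells of HH4-HH4 (x axis) and of HH8-HH4 (y axis), 1 point per gene, with selected genes named. RPL37A, RPL29 and RPL36 are at the upper right, RPL15 and RPS4Y1 at the lower left, and RPS27L lies apart at the upper left.

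The order of the members was alike in host cells of both pairs of libraries. Across the 55 members the 3 h over 0 h ratios had a Pearson correlation of 0.79 (Spearman 0.80), and 43 of 55 had the same sign in both, as did 54.1% of 4166 genes. Over all genes the correlation was -0.09 (Spearman 0.05). Genes are not independent replicates, and the points of each pair share their 2 libraries with their depths, so these are descriptions. RPS27L departed from the order, with ratios of -0.30 in HH4-HH4 and 0.52 in HH8-HH4 host cells, at levels of 70.8 to 107 CPM.

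RPL29, RPL34, RPL36, RPL37A, RPL38, RPL39L and RPS28, 7 genes chosen after their values were seen, were close in weight between graft and host cells of each library. All 7 are among the 9 past 1.5-fold at 3 h over 0 h in HH4 graft cells, while RPLP1 and RPL35A were left out. A higher weight of the 7 at 3 h was thus built into the choice and is no separate result. They made up 12.1% of ribosomal protein UMIs in graft and 12.1% in host cells of HH4-HH4 3 h, and 7.90% in graft and 7.69% in host cells of HH4-HH4 0 h. In HH8-HH4 3 h they made up 10.0% in graft and 10.1% in host cells, and in HH8-HH4 0 h 7.60% in graft and 7.64% in host cells. Within each graft type the weight of these genes was also higher in the 3 h library at matched depth, in bins that are parts of the same cells. In graft cells with 20000 to 40000 UMIs the 7 genes took 11.9% in HH4-HH4 3 h and 8.06% in HH4-HH4 0 h, and in host cells with 5000 to 10000 UMIs 10.0% in HH8-HH4 3 h and 7.63% in HH8-HH4 0 h. Library preparation and RNA quality at the 2 times were not tested.

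Translation factors were divided between graft and host cells, and ribosome biogenesis genes leaned towards HH8 graft cells at 0 h. Of 24 cytosolic translation factors none was past 1.5-fold in HH8-HH4 0 h, beside 4.95% of all genes upward and 9.39% downward. The median graft over host ratio was 0.01, beside -0.08 over all genes, and 13 were above 0, as were 38.8% of all genes. The highest were EIF5B, which joins the subunits at the start codon (0.32), and NACA, of the nascent chain complex (0.24), and the lowest EIF3H (-0.35) and EIF5 (-0.22). EEF1A1, the elongation factor that delivers transfer RNA, was at 7904 CPM in graft cells and 7868 CPM in host cells. At 3 h the median over the 23 factors compared was 0.04.

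Of 24 ribosome biogenesis genes 17 were above 0 in HH8-HH4 0 h with a median of 0.07 (38.8% of all genes, median -0.08), and 12 at 3 h with a median of 0.01 (43.4% of all genes, median -0.05). In HH8 against HH4 graft cells 18 of 24 were above 0 at 0 h with a median of 0.24 (45.9% of all genes), and 19 of 24 at 3 h with a median of 0.17 (53.7% of all genes). There 4 were higher by over 1.5-fold at 0 h (MYCN, RRP1B, MYC and UTP15), beside 6.78% of all genes. At 3 h 3 were higher (MYCN, RRP12 and NCL), beside 8.5% of all genes, and MYC was lower, beside 6.18%. The 2 past 1.5-fold in graft against host cells at 0 h, beside 4.95% of all genes upward, were the transcription factor genes MYCN and MYC, regulators of growth. MYCN was at 270 CPM in graft cells and 106 CPM in host cells at 0 h (1.27), and at 181 CPM in graft cells and 52.8 CPM in host cells at 3 h (1.60). MYC was at 44.4 CPM in graft cells and 23.2 CPM in host cells at 0 h (0.71). At 3 h MYC was at 9.5 CPM in graft cells and 22.6 CPM in host cells (-0.74). Its order turned, though the 3 h graft level was below the 10 CPM added to both values and rests on 116 cells. DDX47 (-0.28) and TCOF1 (-0.13) were the lowest at 0 h.

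Of 37 mitochondrial ribosomal protein genes, which serve the separate ribosome of mitochondria, 14 were above 0 at 0 h (38.8% of all genes) and 18 at 3 h (43.4%), with medians of -0.04 and -0.06. MRPL41 was at 271 CPM in graft cells and 174 CPM in host cells at 0 h (0.61), and MRPS14 at 124 CPM in graft cells and 234 CPM in host cells (-0.86). MRPS34 (0.46) and MRPL15 (-0.49) came next to them. Of 38 oxidative phosphorylation subunits, a list added after the data were seen, 13 were above 0 at 0 h (38.8%) and 6 at 3 h (43.4%). Their medians were -0.10 and -0.14, beside -0.08 and -0.05 over all genes. Their highest at 0 h were UQCR10 (0.32) and ATP5A1Z (0.29) and their lowest NDUFS3 (-0.51) and UQCRB (-0.46). Genes of these lists were not divided by chromosome or HINTW class, and that class differed between graft and host cells of HH8-HH4 0 h. At 3 h against 0 h the medians of this list were 0.26 in HH8 graft, 0.20 in HH4 graft, 0.04 in HH4-HH4 host and 0.33 in HH8-HH4 host cells. Over all genes the medians were 0.01, -0.08, -0.05 and -0.03 in that order.

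Among 11 stress and dissociation genes compared in HH8-HH4 0 h the median was 0.02, beside -0.08 over all genes. Above 0 were 6 of the 11, beside 38.8% of all genes. CHAC1, a target of the integrated stress response, was at 46.3 CPM in graft cells and 6.9 CPM in host cells (1.74), HSPB1 had a ratio of 0.22, HSPA2 was at 50.8 CPM in graft cells and 151 CPM in host cells (-1.40), and JUN had a ratio of -0.51. In HH8 against HH4 graft cells the medians of this list were 0.05 at 0 h and 0.28 at 3 h, beside -0.03 and 0.03 over all genes. At 3 h 4 of 10 were higher by over 1.5-fold (8.5% of all genes) and none lower (6.18%). The part of stress in the ribosomal protein share was not tested.

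Across the 8 groups of graft and host cells, the gene whose level was most like the summed ribosomal protein level was SHFM1, which encodes a small proteasome subunit, with a Pearson correlation of 0.996 among 2298 genes searched. It was at 1112 CPM in graft cells and 827 CPM in host cells of HH8-HH4 0 h, and at 1306 CPM in graft cells and 969 CPM in host cells of HH8-HH4 3 h. NDUFAF8 (0.978), POLR2L (0.971), PIGBOS1 (0.970) and UCK2 (0.967) followed. The 8 groups come in pairs from 4 libraries, so the points share library and depth.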

How the data were processed

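Single-cell libraries (10x Genomics 3′) from grafted tissue were examined. The authors made UMI counts per gene and barcode with CellRanger 6.1.1 on galGal6, called cells, and deposited these counts without normalisation. Totals and shares refer to the listed genes. Barcodes needed 2000 UMIs. Graft cells had 3 or more eGFP UMIs and host cells 0, and cells with 1 or 2 (20 to 214 per library) were left out. Counts were summed per group and scaled to 1000000 (CPM). Log2 ratios had 10 CPM added to both values, for genes with 100 or more UMIs over both groups, and differences past 1.5-fold were counted. With 1 library per condition no test was run and no p-value is given. Shares have Clopper-Pearson and levels Poisson intervals (95%). Scrublet in scanpy 1.11.5 marked 98 of 8039 barcodes as doublets (0.109% to 4.65% per library; in HH4-HH4 0 h and HH8-HH4 3 h it marked under 0.5%), which were kept. Depth was also equalised by thinning. The pipeline was tested on simulated data. Calculations ran in Python 3.11.15 (pandas 2.3.3, numpy 2.4.6, scipy 1.17.1).

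Replicate 1 of HH4-HH4 0 h carries identifiers without symbols and 0 GFP UMIs, and was used for its barcodes and their totals only. Of its 3098 barcodes 2755 were among the 2757 of replicate 2. Chromosomes and synonyms came from RefSeq (GRCg7b), where all 56 symbols matched, and no coordinates were used since the builds differ.

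Members named are drawn from the 5 highest in level (1 is not reported here), the 5 highest and 5 lowest in each comparison (not all are printed), paralogues, Z-linked genes and RPLP genes, and from other lists the 2 highest and 2 lowest in HH8-HH4 0 h. EEF1A1, RRP1B, UTP15, RRP12, NCL, RPL5, RPL7A and RPL22 in some comparisons were added after their values were seen. The members and lists were chosen with earlier results of these data known. Alternatives were other eGFP, UMI and fold limits, other scalings, thinning, doublet removal and single-cell medians.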

Additional observations from a re-analysis of the deposited data

Results flagged for a closer look

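RPL17, RPS6, RPL3 and RPL7A, all ribosomal protein genes, had graft over host log2 ratios of opposite direction in homochronic and heterochronic libraries. The pattern was not particular to them, and RPS12, RPL27A and RPL37 were among other members that had it. The difference between the pairs was not tested, since each condition has 1 library. RPL17 had ratios of 0.44 and 0.29 in HH8-HH4 at 0 h and 3 h, and of -0.36 and -0.14 in HH4-HH4. RPS6 had 0.45 and 0.28 in HH8-HH4, and -0.35 and -0.19 in HH4-HH4. Both are Z-linked, and the HINTW-high share of the cells moved with them. RPL3 had 0.082 and 0.17 in HH8-HH4, and -0.027 and -0.082 in HH4-HH4. RPL7A had 0.080 and 0.18 in HH8-HH4, and -0.056 and -0.040 in HH4-HH4. These last are autosomal, and their ratios in HH4-HH4 are small.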

How the results depend on the processing

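The larger ribosomal protein share of HH8 graft cells over host cells kept its direction under every alternative run. Against 2.98 points in HH8-HH4 0 h and 2.79 in HH8-HH4 3 h, the differences were 2.76 and 1.73 with graft cells from 1 eGFP UMI, 2.88 and 2.68 with subunit genes only, 3.10 and 2.87 without the 20 most abundant other genes in the total, 3.07 and 3.36 in cells with an MSGN1 UMI, and 2.91 and 2.91 in HINTW-low cells, the last chosen after seeing the data. At 3 h it was also 3.08 from 10 eGFP UMIs, 3.02 with cells thinned to 2000 UMIs and 2.95 without doublets. The small HH4-HH4 differences had no stable sign. At 0 h (-0.05) they were 0.00878 from 1 eGFP UMI, 0.148 without the 20 genes, 0.136 with MSGN1, -0.208 as single-cell medians, -0.0950 thinned and -0.433 in HINTW-low cells. At 3 h (0.33) they were -0.476 as single-cell medians, -0.360 thinned, -1.21 in HINTW-low cells, 0.491 from 1 eGFP UMI, 0.620 without doublets and 0.530 without the 20 genes. The causes were not tested.

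Scaled to the other genes, the member median of graft over host was 0.20 in HH8-HH4 0 h and 0.20 in HH8-HH4 3 h, and with the median of all genes at 0 it was 0.22 and 0.20. With the limit at a log2 ratio of 0.32 in place of 1.5-fold, members past it numbered, for graft against host, 2 in HH4-HH4 0 h, both lower (3.62% of all genes), 3 in HH8-HH4 0 h, all higher (11.3%), and 2 in HH8-HH4 3 h, 1 higher (13.1%) and 1 lower (18.5%). For HH8 against HH4 graft at 3 h there were 11, 6 higher (21.9%) and 5 lower (15.5%). For 3 h against 0 h there were 10 in HH8 graft, all higher (14.1%), 23 in HH4 graft, 21 of them higher (11.3%), 24 in HH4-HH4 host, 20 of them higher (11.2%), and 12 in HH8-HH4 host cells, all higher (7.19%). At a fold of 2 the count was 0 in every comparison, and the share of all genes past that size was not taken. HH8 against HH4 graft at 0 h had 0 past 1.5-fold from 1 eGFP UMI, and HH8 graft at 3 h against 0 h had 1 when scaled to the other genes and 1 when thinned.

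With HINTW over 1000 CPM against 0 UMIs, RPL17 was at -0.87 in HH4-HH4 3 h, RPL37 at -0.39 in HH4-HH4 0 h, and RPS6 at -0.80, -0.86, -0.81 and -0.72 in HH4-HH4 0 h, HH4-HH4 3 h, HH8-HH4 0 h and HH8-HH4 3 h. The remaining 127 values were 19 of shares, 74 of counts, 16 of medians and 18 of Z-linked genes. Shares and Z-linked genes stayed within counting error, and counts within 1.5 times the count. Medians stayed within a limit set by the spread between the quartiles of the members, which is wider than counting error. Among these, the HH4 graft median at 3 h against 0 h was 0.19. It was 0.27 when scaled to the other genes and 0.28 with the median of all genes set to 0.

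HH4-HH4 0 h from replicate 1 was not run, since none of its identifiers matched a symbol. No paired analysis was possible because each condition has 1 library and no test was run. HH4-HH4 3 h rests on 72 graft cells and HH8-HH4 3 h on 116.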
